A study of Mus musculus with 8 samples.

Results

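The genes described here encode proteins of central nervous system myelin or of the oligodendrocytes that form it, measured in purified mouse brain vessels. They are Mbp, Mog, Mag, Mobp, Cnp, Mal, Ermn, Ugt8a and Enpp6, taken by name from the array annotation, 9 of 16221 distinct named genes measured above background. Each of the 9 was represented by 1 transcript cluster, the set of probes that reports a gene, and each was above the background floor on all 8 arrays. The digested group holds 4 arrays of brain vessels from 2-month-old male C57Bl6 mice, for which mechanical homogenization of the brain was replaced by a warm enzymatic digestion that partly digests the basal lamina. The undigested group holds 4 arrays of vessels from mice of the same strain, sex and age, for which the brain was homogenized mechanically. Every array carried 1 library made from vessels pooled from 4 mice. The comparison was meant to single out transcripts lost from vessels with astrocyte endfeet, the processes by which astrocytes cover the vessel wall. The groups differed in the whole dissociation step, so the loss of endfeet and other effects of the enzymes cannot be told apart.

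Myelin is the membrane that oligodendrocytes wrap around axons. Its compact layers are held together from the cytoplasmic side by basic proteins such as Mbp and Mobp, while adhesion molecules such as Mag and Mog sit on surfaces at the inner and outer faces of the sheath. Oligodendrocytes are no part of the vessel wall, but their processes and myelinated axons run close to brain vessels, and Mbp and Mobp transcripts are known to be carried into oligodendrocyte processes. In bulk RNA, fewer cells of a type and less RNA per cell cannot be told apart.

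In the values as deposited, the 9 myelin genes did not all move in 1 direction. Mag, Ermn and Enpp6 were about doubled in digested vessels (2.22-, 2.07- and 2.07-fold), Mog rose by 1.31-fold, and Mal fell by 1.49-fold. Mbp, Mobp, Cnp and Ugt8a did not pass the test, with differences between 0.07 and 0.23 on the log2 scale. All differences are digested minus undigested in log2 units, tested with limma on 4 arrays per group with Benjamini-Hochberg adjustment over 27664 clusters and called at an adjusted p of 0.05. Thus 4 of the 9 genes were raised and 1 was lowered, beside 14.4% raised and 9.04% lowered of all named genes, and 11.1% raised and 10.2% lowered of all clusters tested. In the same 4 genes all digested arrays were above all undigested arrays, and in Mal all were below, beside 17.8% and 11.8% of all named genes. The median difference of the 9 genes was 0.23, against 0.02 over all named genes tested.

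**Figure D1:**
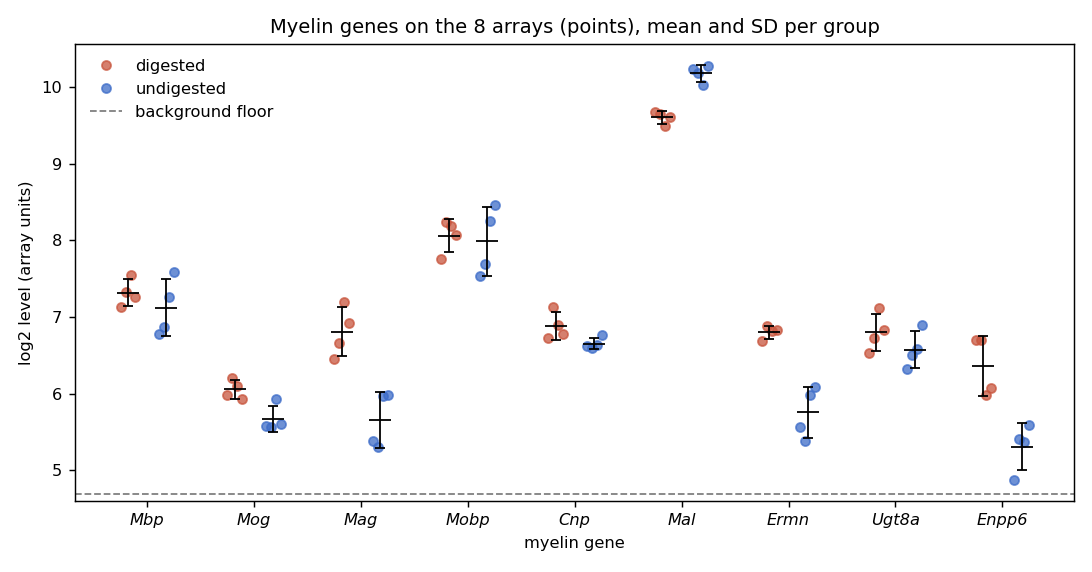
Log2 level (array units, y axis) of each of the 9 myelin genes (x axis) on the 4 digested arrays (red, left) and the 4 undigested arrays (blue, right), with the mean and SD of each group as black bars and the background floor of 4.68 as a dashed line. For Mag, Ermn, Enpp6 and Mog every digested array lay above every undigested one, and for Mal every digested array lay below. Levels of different genes come from different probes and are not comparable.

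Mag and Mog encode adhesion molecules of the immunoglobulin family. Mag (myelin-associated glycoprotein, transcript cluster 17489341) lies on the innermost myelin membrane, next to the axon. Its level was 6.45, 6.67, 7.20 and 6.92 on the digested arrays, against 5.39, 5.30, 5.96 and 5.99 on the undigested arrays. The lowest digested array thus stood above the highest undigested one. Mag averaged 6.81 ± 0.32 in digested vessels and 5.66 ± 0.37 in undigested vessels (SD, n = 4 each), a difference of 1.15 (SE 0.21, 95% interval 0.68 to 1.62, limma adjusted p = 0.00568). It was raised in every fit that left out 1 array, with differences from 1.02 to 1.27.

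Mog (myelin oligodendrocyte glycoprotein, cluster 17344822) is found on the outermost surface of the sheath. It had 5.98, 6.20, 6.10 and 5.94 in digested vessels, against 5.58, 5.57, 5.93 and 5.60 in undigested vessels. The groups were parted by a narrow gap, because undigested array 3 reached nearly the lowest digested array. The difference was 0.39 (SE 0.11, 95% interval 0.15 to 0.63, limma adjusted p = 0.0315). This call was lost without digested array 1, 2 or 3 and without undigested array 1, 2 or 4, with limma adjusted p from 0.0540 to 0.0840. Over all the alternatives tried, its adjusted p ran from 0.000671 to 0.214.

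Ermn (ermin, cluster 17385398) encodes an actin-binding cytoskeletal protein of mature oligodendrocytes. Its digested arrays were at 6.68, 6.88, 6.82 and 6.83, and its undigested arrays were at 5.57, 5.38, 5.98 and 6.09. The digested arrays lay close together (6.80 ± 0.08, SD, n = 4), whereas the undigested arrays spread widely (5.76 ± 0.34, SD, n = 4). Ermn rose by 1.05 (SE 0.15, 95% interval 0.70 to 1.39, limma adjusted p = 0.00252).

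Mal (myelin and lymphocyte protein, cluster 17391332) is a small membrane-spanning protein of lipid rafts in myelin, which is also made by polarized epithelia and T lymphocytes. It was the one gene of the 9 that fell. Digested vessels had 9.67, 9.64, 9.49 and 9.62, against 10.24, 10.19, 10.02 and 10.27 in undigested vessels. Mal averaged 9.61 ± 0.08 in digested vessels and 10.18 ± 0.11 in undigested vessels (SD, n = 4 each). The difference was -0.58 (SE 0.09, 95% interval -0.77 to -0.38, limma adjusted p = 0.00261), with the groups well apart.

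The stretches of 250 bases before the RefSeq transcription start are shown for 3 genes that rose and for Mal, which fell, to set the sequences upstream of genes with opposite differences side by side (GRCm38.p6, minus strand, 5′ to 3′). They lie at chr7:30914923-30915172 for Mag, chr2:58052865-58053114 for Ermn, chr17:37023399-37023648 for Mog and chr2:127656696-127656945 for Mal. Mag has 3 promoter windows in the RefSeq table, of which the outermost is shown. Capitals mark matches, on either strand, to ACAAAG and ACAATG, core motifs bound by Sox10-type factors, and to CTGGCAC and CTGGTAC, motifs of the type bound by Myrf. Sox10 and Myrf are transcription factors that drive myelin gene expression in oligodendrocytes.
Mag: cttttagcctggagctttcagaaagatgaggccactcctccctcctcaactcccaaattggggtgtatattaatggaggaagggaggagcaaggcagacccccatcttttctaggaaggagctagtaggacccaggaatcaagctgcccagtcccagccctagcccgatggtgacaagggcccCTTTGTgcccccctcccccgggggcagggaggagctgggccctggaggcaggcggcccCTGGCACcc
Ermn: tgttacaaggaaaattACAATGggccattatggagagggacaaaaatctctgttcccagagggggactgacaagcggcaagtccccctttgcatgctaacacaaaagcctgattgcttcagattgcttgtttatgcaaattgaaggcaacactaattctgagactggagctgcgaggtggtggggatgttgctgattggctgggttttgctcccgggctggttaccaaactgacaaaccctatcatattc
Mog: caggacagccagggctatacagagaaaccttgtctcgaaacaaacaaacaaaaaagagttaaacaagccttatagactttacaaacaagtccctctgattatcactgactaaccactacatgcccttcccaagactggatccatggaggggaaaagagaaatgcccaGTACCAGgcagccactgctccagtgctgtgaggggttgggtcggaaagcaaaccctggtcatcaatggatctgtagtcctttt
Mal: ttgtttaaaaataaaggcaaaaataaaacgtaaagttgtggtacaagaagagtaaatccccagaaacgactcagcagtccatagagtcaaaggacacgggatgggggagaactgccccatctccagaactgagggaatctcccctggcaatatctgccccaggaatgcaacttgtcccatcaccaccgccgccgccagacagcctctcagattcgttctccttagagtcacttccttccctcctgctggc

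The Mag stretch held ACAAAG on the opposite strand 67 bases before the start and CTGGCAC 9 bases before it. Ermn held ACAATG 234 bases before the start, and Mog held CTGGTAC on the opposite strand 83 bases before it. Mal held none of these letters in its window. A promoter window was found for 8 of the 9 genes. Of the genes not shown, Mobp held 6 copies of ACAAAG, Cnp held ACAAAG and CTGGCAC, Enpp6 held ACAATG, and Ugt8a held none. No match overlapped another. Over 32851 promoter windows of 300 bases (250 before and 50 after the start), ACAAAG was found in 18.7%, ACAATG in 12.6%, CTGGCAC in 5.01% and CTGGTAC in 2.24%, and 33.6% held at least one of them. A match is a description of letters, not of a bound site.

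Mbp and Mobp encode the basic proteins that bring the cytoplasmic faces of compact myelin together. Mbp (cluster 17352175) had 7.13, 7.32, 7.55 and 7.27 in digested vessels, against 6.77, 6.87, 7.26 and 7.59 in undigested vessels. Undigested array 4 was above all digested arrays, and undigested arrays 1 and 2 were below all of them. The difference of 0.20 (SE 0.18, 95% interval -0.21 to 0.60) had a limma adjusted p of 0.473. Mobp (cluster 17523192) showed the same order of undigested arrays. Its levels were 7.75, 8.24, 8.18 and 8.07 in digested vessels, against 7.53, 7.69, 8.26 and 8.47 in undigested vessels, a difference of 0.07 (SE 0.21, 95% interval -0.40 to 0.55, limma adjusted p = 0.835). Both intervals leave room for a rise as well as a fall.

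Cnp, Ugt8a and Enpp6 encode enzymes. Cnp (cluster 17256404), a phosphodiesterase of the non-compacted cytoplasmic channels of myelin, had 6.73, 7.13, 6.89 and 6.78 in digested vessels, against 6.63, 6.59, 6.63 and 6.77 in undigested vessels. Only undigested array 4 reached into the digested range. Its difference was 0.23 (SE 0.10), with a limma p of 0.0498 before adjustment and 0.142 after it. Ugt8a (cluster 17410114), which makes galactosylceramide, the main glycolipid of myelin, had 6.53, 6.73, 7.12 and 6.83 in digested vessels, against 6.32, 6.50, 6.58 and 6.90 in undigested vessels. Its groups overlapped, with a difference of 0.23 (SE 0.15, 95% interval -0.12 to 0.57, limma adjusted p = 0.328).

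Enpp6 (cluster 17501061) encodes a choline-specific phosphodiesterase and is highest in oligodendrocytes that have just begun to form myelin. Digested arrays were at 6.69, 6.70, 5.98 and 6.08, and undigested arrays at 4.87, 5.40, 5.37 and 5.59. Digested arrays 1 and 2 stood well above digested arrays 3 and 4, an order that the other raised genes lacked. Undigested array 1, the lowest value of any of the 9 genes, lay 0.19 above the background floor. Enpp6 rose by 1.05 (SE 0.21, 95% interval 0.58 to 1.52, limma adjusted p = 0.00848), and it was raised in every fit that left out 1 array.

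**Figure D2:**
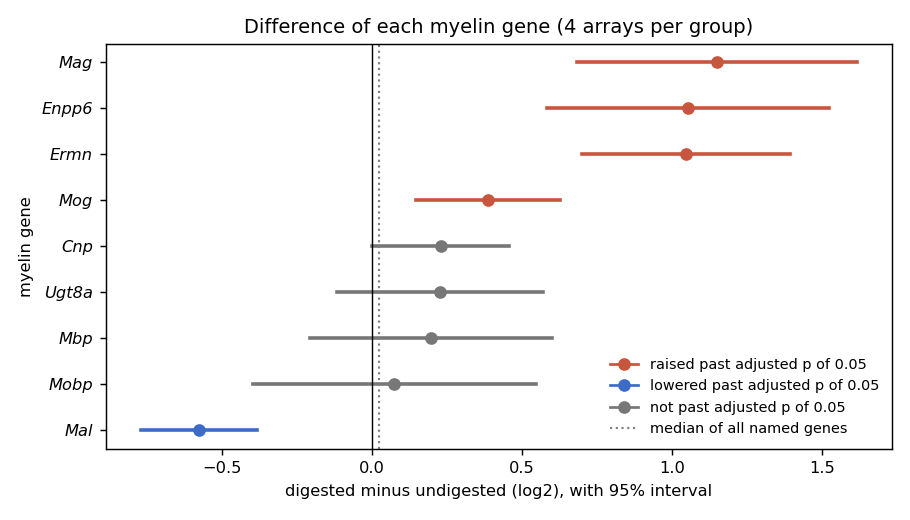
Log2 difference between digested and undigested vessels (x axis) for each myelin gene (y axis), with 95% intervals from limma, n = 4 arrays per group; red genes were raised, the blue gene was lowered and grey genes did not pass an adjusted p of 0.05. The dotted line is the median of all named genes, 0.02. Mag, Enpp6 and Ermn lie above 1.00, the next gene is Mog at 0.39, and Mal is the one gene below 0.

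Whether 2 myelin genes differed in their response was compared within arrays, since the log2 ratio of 2 genes on the same array does not move with the scaling of that array. All 36 pairs were tested with an exact two-sided permutation test over the 70 ways of dividing the 8 arrays into 2 groups of 4, which cannot give a p below 0.0286. This smallest p was reached by 19 pairs, and after Benjamini-Hochberg adjustment over the 36 pairs it became 0.0541, so no pair passed 0.05. Pairs of other named genes were not tested, so this count is not shown to be particular to myelin genes. The pairs named below at the smallest p set a raised gene beside one not called or lowered. They therefore restate the calls given above. The difference of Mag was larger than that of Mobp by 1.08 and larger than that of Cnp by 0.92, with no overlap of the arrays' ratios in either pair (exact permutation p = 0.0286 each). That of Ermn was likewise larger than that of Ugt8a by 0.82 (exact permutation p = 0.0286). Mag and Mal were farthest apart, by 1.73 (exact permutation p = 0.0286). Among the 3 genes that were about doubled, Mag and Ermn differed by 0.10 (exact permutation p = 0.600) and Mag and Enpp6 by 0.10 (exact permutation p = 0.800).

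The undigested preparations differed among themselves in myelin genes. In 7 of the 9 genes undigested arrays 3 and 4 were both above undigested arrays 1 and 2, a pattern shown by 30.9% of all named genes, and in 0 of the 9 were both below, against 22.8% of named genes. The exceptions were Enpp6 and Mal. The median SD over the 9 genes was 0.18 among digested arrays and 0.31 among undigested arrays, against 0.14 and 0.13 over all named genes. No label names this split. Most lists described below also followed it, averaged over their genes. The choroid plexus list was at 9.43 and 9.40 on undigested arrays 3 and 4, beside 8.67 and 8.55 on arrays 1 and 2. In the same order, the astrocyte list was at 8.99 and 8.98 beside 8.62 and 8.68. The microglia list was at 6.94 and 6.93 beside 6.66 and 6.61. The neuronal list and the other oligodendrocyte lists had the same order, and the peripheral myelin list did not. The endothelial list ran the other way, at 10.12 and 10.01 beside 10.34 and 10.37. Without undigested arrays 1 and 2, Mag (0.83, limma adjusted p = 0.0472) and Ermn (0.77, adjusted p = 0.00905) still passed as raised and Mal (-0.54, adjusted p = 0.0324) as lowered. Enpp6 (0.88, adjusted p = 0.0649) and Mog (0.29, adjusted p = 0.214) did not, and the differences of Mbp and Mobp became -0.10 and -0.30. Without undigested arrays 3 and 4, Mbp passed as well (0.50, adjusted p = 0.0406). Within arrays numbered 1 and 2, digested minus undigested was 1.56 for Enpp6, 1.31 for Ermn, 0.41 for Mbp and 0.39 for Mobp. Within arrays numbered 3 and 4 it was 0.55, 0.79, -0.01 and -0.24. Mag (1.21 and 1.09), Mal (-0.56 and -0.60) and Ugt8a (0.22 and 0.24) differed less between these sets. No label joins arrays of the same number across the groups. Over all the alternatives tried, the adjusted p ran from 0.000222 to 0.0472 for Mag, from 0.000134 to 0.0175 for Ermn, from 0.000136 to 0.0649 for Enpp6, from 0.000960 to 0.947 for Mal and from 0.0125 to 0.801 for Mbp.

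Deviations of each array from its group mean were compared between genes as a description. Over the 8 arrays, which share their libraries, Mbp and Mobp deviated together (r = 0.94), as did Mobp and Ermn (r = 0.91), Mbp and Ugt8a (r = 0.89) and Mbp and Mag (r = 0.88). These were the highest values of the 36 pairs. Among the 28 pairs without Mal the median r was 0.47 and 26 were positive. Pairs of other named genes were not measured, so this is not shown to be particular to myelin genes. Mal did not share this pattern, since only 2 of its 8 pairs were positive and their median r was -0.26. Enpp6 shared it weakly at most, with r of -0.21 with Mag, -0.10 with Ugt8a and none above 0.33. Mbp and Mobp thus varied with Mag and Ermn from preparation to preparation. In undigested vessels these genes were all below their group mean on arrays 1 and 2 and above it on arrays 3 and 4. This is the split described above, in which 30.9% of all named genes had the same order.

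**Figure D3:**
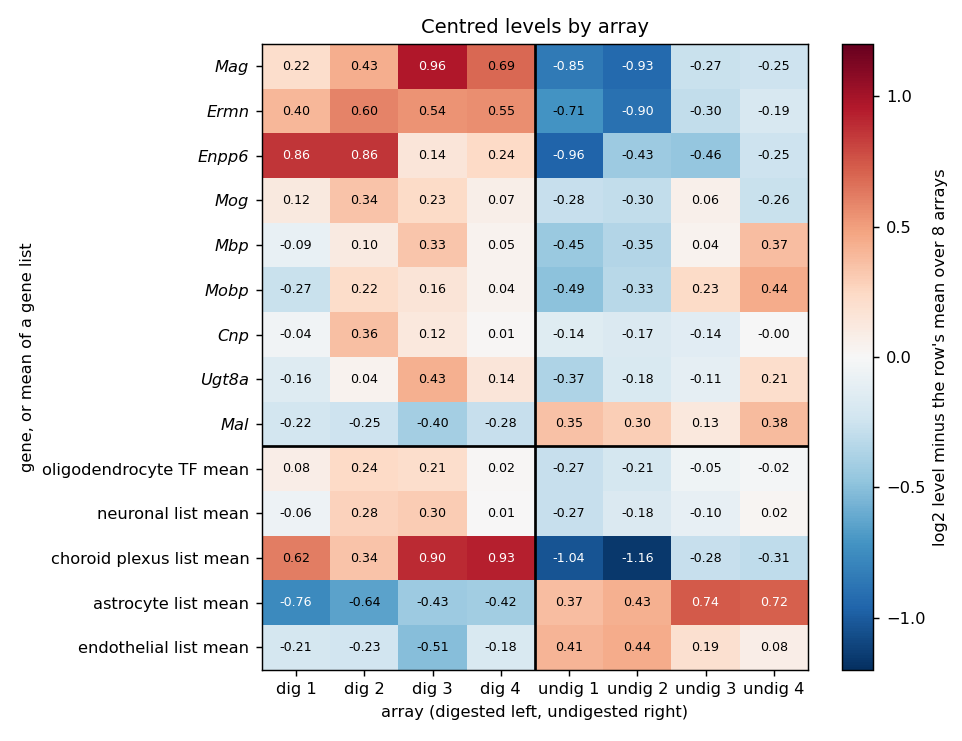
Log2 level minus the row's mean over the 8 arrays (colour and printed value) for the 9 myelin genes (upper rows) and for the mean of 5 gene lists (lower rows), on digested arrays 1 to 4 (left columns) and undigested arrays 1 to 4 (right columns); TF stands for transcription factor. Undigested arrays 1 and 2 were the lowest columns for most myelin genes and for the choroid plexus, TF and neuronal lists, but not for the astrocyte and endothelial lists. Mal ran opposite to Mag.

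The calls depended on the level to which arrays were set. In the values as deposited, 47.9% of the 5872 clusters past the test were lowered. Arrays were instead centred on the mean of the endothelial list, which holds that mean level but not each of its genes. Every cluster then moved up by 0.57, the median of all clusters became 0.54 and 1.63% of the calls were lowered. On that scale 68.9% of all clusters passed as raised, and so did 8 of the 9 myelin genes, among them Mbp (0.76), Mobp (0.64), Cnp (0.79) and Ugt8a (0.79), and Mal was at -0.01 (limma adjusted p = 0.947). The median of the 9 genes was then 0.79, beside the median of 0.54 over all clusters.

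The counts in the other oligodendrocyte lists below stand beside 14.4% raised and 9.04% lowered of all named genes. In the list of other membrane proteins of oligodendrocytes and myelin, 5 of 25 measured genes were raised, 3 were lowered and 17 did not pass, with a median difference of 0.02, counts and a median near those of all named genes. Opalin, a sialylated glycoprotein of the myelin sheath, had 5.11, 5.56, 5.53 and 5.59 on digested arrays, against 4.68, 4.49, 4.67 and 4.71 on undigested arrays. Its undigested mean of 4.64 and 3 of its 4 undigested arrays were under the background floor. Opalin thus entered the test, and the count of 5, only through the digested arrays, and no fold change is given for it. Cd9, a tetraspanin, rose by 0.34 (SE 0.09, limma adjusted p = 0.0235), but did not pass in 5 of the 8 fits with 1 array fewer. Lpar1, a lysophosphatidic acid receptor of oligodendrocytes and other cells, had 6.18, 6.17, 6.51 and 6.44 in digested vessels, against 7.07, 7.14, 7.31 and 7.43 in undigested vessels. It fell by 0.91 (SE 0.12, adjusted p = 0.00146), and Sema6a, a semaphorin also made by endothelium, fell by 0.67 (SE 0.13, adjusted p = 0.00837). Both remained lowered in each fit that left out 1 array, whereas neither passed with arrays centred on the endothelial list (adjusted p = 0.116 and 0.598).

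Among other cytoplasmic, enzymatic and secreted products of oligodendrocytes, 5 of 24 genes were raised, 6 were lowered and 13 did not pass, with a median of 0.05. The carbonic anhydrase gene Car2, also strongly expressed by choroid plexus, had the largest difference of these lists. It had 10.26, 9.99, 10.56 and 10.65 in digested vessels, against 8.59, 8.37, 8.88 and 9.01 in undigested vessels, a 3.15-fold rise (limma adjusted p = 0.000864). The small heat shock protein gene Cryab rose by 1.99-fold (adjusted p = 0.00101). Apod, an apolipoprotein made by oligodendrocytes and by fibroblasts, fell by 0.95 (SE 0.14, adjusted p = 0.00222). Ptgds, which makes prostaglandin D and is also a product of the leptomeninges and choroid plexus, was 1.44-fold lower (adjusted p = 0.0199), a call lost without digested array 1 or undigested array 4 (highest adjusted p = 0.0540). With arrays centred on the endothelial list neither passed, at -0.39 for Apod (adjusted p = 0.0908) and 0.04 for Ptgds (adjusted p = 0.848).

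The enzymes of lipid synthesis, which supply the membrane, moved in 1 direction where they passed the test, with 4 of 10 raised, 0 lowered and a median of 0.31. Hmgcs1 of the cholesterol pathway rose by 1.74-fold (limma adjusted p = 0.00233) and Degs1, a ceramide desaturase, by 1.64-fold (adjusted p = 0.00406). The fatty acid elongase gene Elovl7 rose by 1.39-fold (adjusted p = 0.0411), but passed in only 1 of the 8 fits with 1 array fewer. Sptlc2, a subunit of serine palmitoyltransferase, differed by 0.07 (adjusted p = 0.650). These enzymes are also made by other cells.

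The transcription factors of the oligodendrocyte lineage had 4 of 11 genes raised, 0 lowered and a median of 0.33. Myrf, which drives myelin genes in maturing oligodendrocytes, had 6.81 to 7.04 in digested vessels, against 5.80 to 6.63 in undigested vessels. The groups did not overlap and the rise was 1.60-fold (limma adjusted p = 0.0208), a call lost without digested array 4 or undigested array 2 (highest adjusted p = 0.0559). The lineage factors Olig1 and Olig2 rose by 1.53- and 1.40-fold (adjusted p = 0.0431 and 0.0470), but did not pass in 6 and 7 of the 8 fits with 1 array fewer. Tcf7l2 differed by 0.06 (adjusted p = 0.746).

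Genes of oligodendrocyte precursors, the dividing cells from which oligodendrocytes arise, had 1 of 14 raised, 2 lowered and a median of 0.08. Vcan, a proteoglycan, rose by 1.29-fold (limma adjusted p = 0.0215), but did not pass in 4 of the 8 fits with 1 array fewer. Ptprz1, a receptor phosphatase of precursors and astrocytes, was 2.65-fold lower (adjusted p = 0.00274). Pdgfra, the growth factor receptor that marks precursors in brain tissue and fibroblasts around vessels, was 1.88-fold lower (adjusted p = 0.00645). Of the genes of peripheral nerve myelin, which is made by Schwann cells, 0 of 6 tested were raised and 2 were lowered, with a median of -0.05. These were Scn7a, a sodium channel (1.47-fold lower, adjusted p = 0.0220, not past in 3 of the 8 fits with 1 array fewer), and Pmp22, which is also made outside nerve (1.42-fold lower, adjusted p = 0.00359). With arrays centred on the endothelial list Ptprz1 still passed as lowered (-0.84, adjusted p = 0.0106), whereas Pdgfra (-0.34, adjusted p = 0.183), Scn7a (0.0082, adjusted p = 0.973) and Pmp22 (0.06, adjusted p = 0.729) did not.

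**Figure D4:**
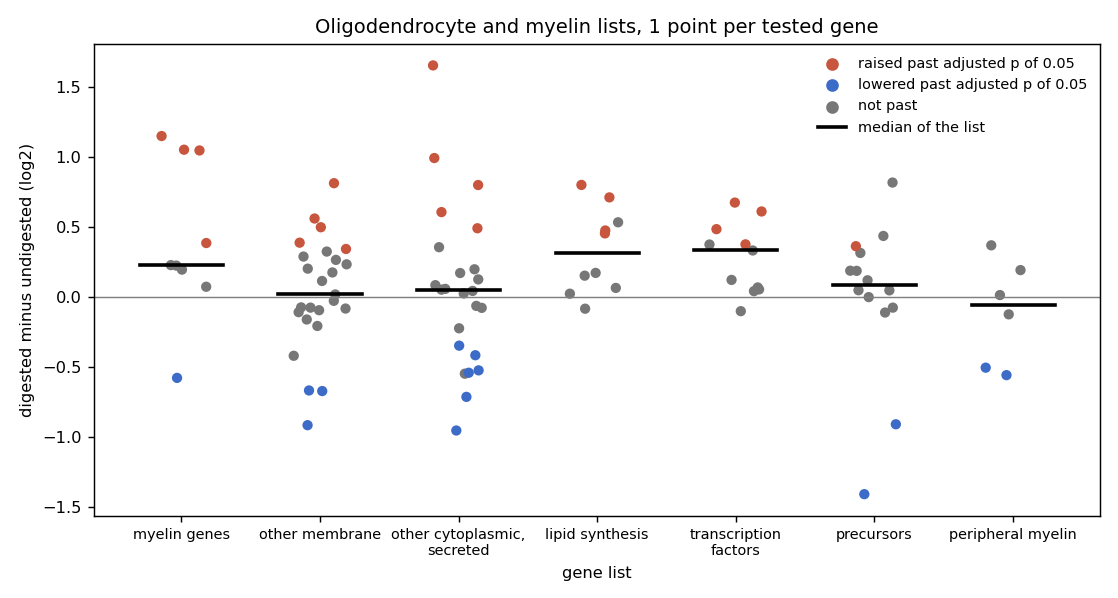
Log2 difference between digested and undigested vessels (y axis) of every tested gene of the myelin group and of 6 other oligodendrocyte and myelin lists (x axis); red points were raised, blue points lowered and grey points not past an adjusted p of 0.05 (limma, n = 4 arrays per group), and black bars are list medians. The lipid synthesis and transcription factor lists hold 0 lowered genes, and the other membrane and cytoplasmic lists hold both directions around medians of 0.02 and 0.05.

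Markers of other cells also differed between the groups. Their counts stand beside 14.4% raised and 9.04% lowered of all named genes. In the neuronal and axonal list 8 of 24 genes were raised and 0 lowered. Its differences ran from -0.50 to 0.75, with a median of 0.31. The list averaged 7.67 to 8.04 on digested arrays, against 7.46 to 7.76 on undigested arrays. In the choroid plexus list 11 of 13 were raised and 0 lowered (10.05 to 10.64 on digested arrays, against 8.55 to 9.43 on undigested arrays). The astrocyte list had 16 of 20 lowered (7.49 to 7.83 on digested arrays, against 8.62 to 8.99 on undigested arrays), the endothelial list 17 of 29 (9.42 to 9.75 on digested arrays, against 10.01 to 10.37 on undigested arrays) and the microglia list 6 of 13 (6.28 to 6.47 on digested arrays, against 6.61 to 6.94 on undigested arrays), with 0 raised in each. The defining genes of these cells were thus measured in both groups. Their part in the differences of the myelin genes was not tested.

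The genes most like the mean profile of the 9 myelin genes were sought among 11250 named genes, by Pearson's r over the 8 arrays and as a description. The profile itself, centred on 0, was at 0.09, 0.30, 0.28 and 0.17 on digested arrays, against -0.43, -0.37, -0.09 and 0.05 on undigested arrays. The closest genes were Sipa1l1 (r = 0.993), Ogfrl1 (0.988), Clip3 (0.988), Hspe1 (0.985), Mrps18a (0.982), Ina (0.979), Spryd3 (0.978), Sult4a1 (0.977), Gad2 (0.973) and Shisa4 (0.971). Among them Ina encodes alpha-internexin, a neurofilament protein, and Gad2 a glutamate decarboxylase of inhibitory neurons, which rose by 1.82- and 1.42-fold (limma adjusted p = 0.00931 and 0.0379). Arrays of 1 group share their treatment, and the profile itself differs between the groups, so genes that differ likewise are favoured by this measure.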

How the data were processed

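Affymetrix Mouse Gene 2.0 arrays, 4 of digested and 4 of undigested brain vessels, were analysed. Per the methods, the authors checked quality in Expression Console, corrected background from antigenomic probes, normalized by quantiles and analysed with EASANA on FAST DB. In the deposited values, each of 41345 transcript clusters has 1 log2 level on each array. That these levels are log2 follows from their range, and the sources used here do not say whether they had exactly that normalization. Array medians were 5.58 to 5.71, and arrays correlated at 0.976 to 0.982 (digested), 0.972 to 0.986 (undigested) and 0.946 to 0.962 (between groups). The number of arrays limits the precision, and p-values measure the spread between pools of 4 mice.

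Symbols came from the platform table (23521 clusters with 1 symbol, 1820 with several, 16004 with none; names checked through 23328 Entrez identifiers in RefSeq, GRCm38.p6). A gene was represented by its single-symbol cluster with the highest mean. The floor of 4.68 was the 90th percentile of the means of 1405 olfactory and vomeronasal receptor clusters, and 27664 clusters above it were kept. Digested arrays were set against undigested ones by limma 3.58.1 (R 4.3.3; two-sided moderated test without covariates), and the steps were tested on simulated data. Plots used matplotlib 3.10.9, pandas 2.3.3 and numpy 2.4.6 under Python 3.11.15. Promoter sequences are from RefSeq (GRCm38.p6).

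The 9 genes and all lists were chosen with earlier results of these data known. All 9 are described. Of each other list of the oligodendrocyte lineage and of peripheral myelin, up to 3 genes with the largest difference past the test and the one with the highest mean signal (of probes that differ between genes) are named, together with the 10 genes nearest to the mean profile. Lists of other cell types are given by counts and levels. For 15 listed genes no single-symbol cluster was found, and they were not analysed here. Alternatives were other centring (array median, endothelial list), repeated quantile normalization, the filter (none, stricter), a trended robust eBayes, array weights, the replicate number as block, a t-test as in the methods, removal of single arrays or of undigested arrays 1 and 2 or 3 and 4, and averaging the clusters of each gene.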

Additional observations from a re-analysis of the deposited data

Results flagged for a closer look

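In 5 of 80 groups of 4 arrays, over 40 genes, 1 array stood apart from the other three by Dixon's criterion at the 95% level, which chance alone reaches in about 1 of 20 groups. Mog was at 5.93 on undigested array 3, against 5.57 to 5.60 on the other undigested arrays. Opalin was at 5.11 on digested array 1, against 5.53 to 5.59 on the other digested arrays, and at 4.49 on undigested array 2, against 4.67 to 4.71 on the other undigested arrays. Cd9 was at 9.55 on digested array 2, against 9.66 to 9.67 on the other digested arrays. Apod was at 11.01 on digested array 4, against 10.69 to 10.74 on the other digested arrays.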

How the results depend on the processing

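Mag and Ermn kept their direction and their call under all 20 alternatives. Mal lost its call with arrays centred on the endothelial list alone. Enpp6 lost its call without undigested arrays 1 and 2, and the stricter filter left it untested. Centring on the endothelial list gave 8 myelin genes raised and 0 lowered, 19063 clusters raised and 315 lowered, 67 of the 84 other oligodendrocyte list genes raised and 1 lowered, and a median of 0.79 for the 9 genes. That centring moves every cluster of an array by the same amount. The stricter filter (floor of 6.22) dropped Mog and Enpp6 and left 7 of the 9 genes, of which 2 were raised. The methods' t-test gave 12 other oligodendrocyte list genes raised, beside 19 with limma, and Mog had an adjusted p of 0.0588. At the methods' thresholds it gave 257 clusters and 3 myelin genes raised and 346 clusters and 0 myelin genes lowered, and after Benjamini-Hochberg adjustment 4351 clusters and 4 myelin genes passed. Without undigested arrays 1 and 2, 2 myelin genes, 1008 clusters and 6 other list genes were raised and 1407 clusters were lowered, and Mbp (-0.10) and Mobp (-0.30) changed sign. Without undigested arrays 3 and 4 the median of the 9 genes was 0.48. With the clusters of each gene averaged, 1726 of 16221 genes were lowered. The cause of these shifts was not tested.

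With each array left out in turn, 3 to 4 myelin genes were raised and 1 was lowered, their median was 0.21 to 0.35, 2028 to 2874 clusters were raised and 2001 to 2736 lowered, and 10 to 17 other list genes were raised and 6 to 10 lowered. The count of raised clusters was 2028 without undigested array 1, against 3059 with all arrays. The other list genes raised were 11 without undigested array 1 and 10 without undigested array 2, against 19, and those lowered were 6 without digested array 1, against 11. Mobp ran from -0.078 to 0.23, and was below 0 without undigested array 1 (-0.078) or undigested array 2 (-0.02). Mog ran from 0.34 to 0.47, with its call lost in 6 of 8 fits. No call changed for the other genes of the 9.

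Deviations of arrays with the same number correlated at 0.06, 0.18, -0.04 and 0.18. Neither these values nor the labels settle whether the samples were paired by number. With the replicate number as a block, 5442 clusters passed, beside 5872 without it, and 4 myelin genes were raised and 1 lowered. Digested arrays 1, 2, 3 and 4 correlated best with undigested arrays 1, 2, 4 and 3, so the best matches stayed within arrays 1 and 2 and within arrays 3 and 4, the split seen among the undigested arrays.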
